A study of Rattus norvegicus with 6 samples.

Results

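The SWI/SNF complexes were examined here through 10 genes of their subunits: the ATPases Smarca4 and Smarca2, the core scaffold genes Smarcb1, Smarcc1, Smarcc2, Smarcd1, Smarcd2 and Smarce1, and the large DNA-binding subunits Arid1a and Arid1b. All probe sets carrying 1 of these symbols as their single gene name in the array annotation were taken, 27 of the 31042 probe sets that are not array controls. The probe set of highest mean signal over the 6 arrays stood for its gene and is called the main one. Kidney RNA came from 3 adult male congenic S.LEW(D1MCO4x1x3Bx1) rats, in which a segment of Lewis chromosome 1 lies on the S background, and from 3 adult male Dahl salt-sensitive (SS/Jr, called S) rats. All 6 rats thus share the S background, the congenic group is 1 congenic line, each array was hybridised with RNA of 1 numbered animal, and neither age beyond adult nor diet is stated in the labels. The series belongs to positional work on Adamts16 and inherited hypertension.

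SWI/SNF complexes use ATP to slide or evict nucleosomes and so open DNA to transcription factors. A complex holds either the Smarca4 or the Smarca2 ATPase, and the BAF form holds either Arid1a or Arid1b, while the PBAF form carries Arid2 and Pbrm1 in their place. In the kidney the complexes are known for tumour suppression, with SMARCB1 lost in human rhabdoid tumours and PBRM1 often mutated in human clear cell carcinoma.

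The tissue label was checked first. The 11 kidney markers measured, among them Umod, Lrp2, Slc34a1, Aqp2 and Slc12a1, all lay above the median signal of the table. Their summed signal was 164209 to 187497 in congenic and 145781 to 171389 in S kidneys. Adrenal markers summed to 428 to 603 in congenic and 474 to 526 in S kidneys (5 of 6 measured), and adipocyte markers to 1557.5 to 3069 in congenic and 1875 to 2683 in S kidneys (6 of 6). Sums also overlapped between strains for erythrocyte markers (12036 to 18426.5 in congenic, 17153 to 23735 in S, 3 of 5 measured). So did those of immune markers (16514 to 18717 in congenic, 15377 to 16836 in S, 5 of 6) and smooth muscle markers (2395 to 2749 in congenic, 2588 to 3153 in S, 4 of 4). The immune sum is mostly Cd74 and Lyz2, with log2 differences, congenic minus S, of 0.08 and 0.15. Weaker immune markers went both ways, with Cd68 at 0.63, Ptprc at -0.35 and Cd3e at -0.24. The endothelial sum was 4459 to 4572 in congenic and 4073 to 4244 in S kidneys (4 of 5 measured), which did not overlap. No marker was listed at 0, and the part of other cell types in the values below was not tested. In whole kidney RNA, fewer cells of a type and less RNA per cell cannot be told apart.

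The interest in this complex came from 1 value that had been noticed earlier in these data, a higher congenic signal at probe set 1375469_at of Smarca4. Its values are therefore given as a description, and the counts over the family support nothing about that choice. Signals are on the linear scale of the deposited table, and a difference is congenic minus S on the log2 scale from limma. A probe set was tested if its mean log2 signal exceeded the median over the table, which held for 18 of the 27 and for all 10 main ones.

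Smarca4, also known as BRG1, is the catalytic subunit, and its 3 probe sets did not give the same picture. The main one, 1373565_at, read 1171, 1313.5 and 1240.2 in the congenic rats, against 1203, 1269.5 and 1149 in the S rats. The strains interleave there, with means of 1242 ± 71.3 in congenic and 1207 ± 60.4 in S rats (SD, n = 3 each) and a log2 difference of 0.04 with a 95% interval of -0.17 to 0.25. Probe set 1375469_at read 718, 913 and 789 in congenic rats, against 611, 463 and 449 in S rats. Each congenic rat lies above each S rat, S replicate 1 is the S rat nearest to them, and the log2 difference was 0.68 (standard error 0.15), a fold of 1.60. The third probe set, 1385011_at, read 366, 302 and 381 in congenic rats and 351, 329 and 442 in S rats. It overlapped, with a log2 difference of -0.09 and an interval of -0.46 to 0.28.

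**Figure D1:**
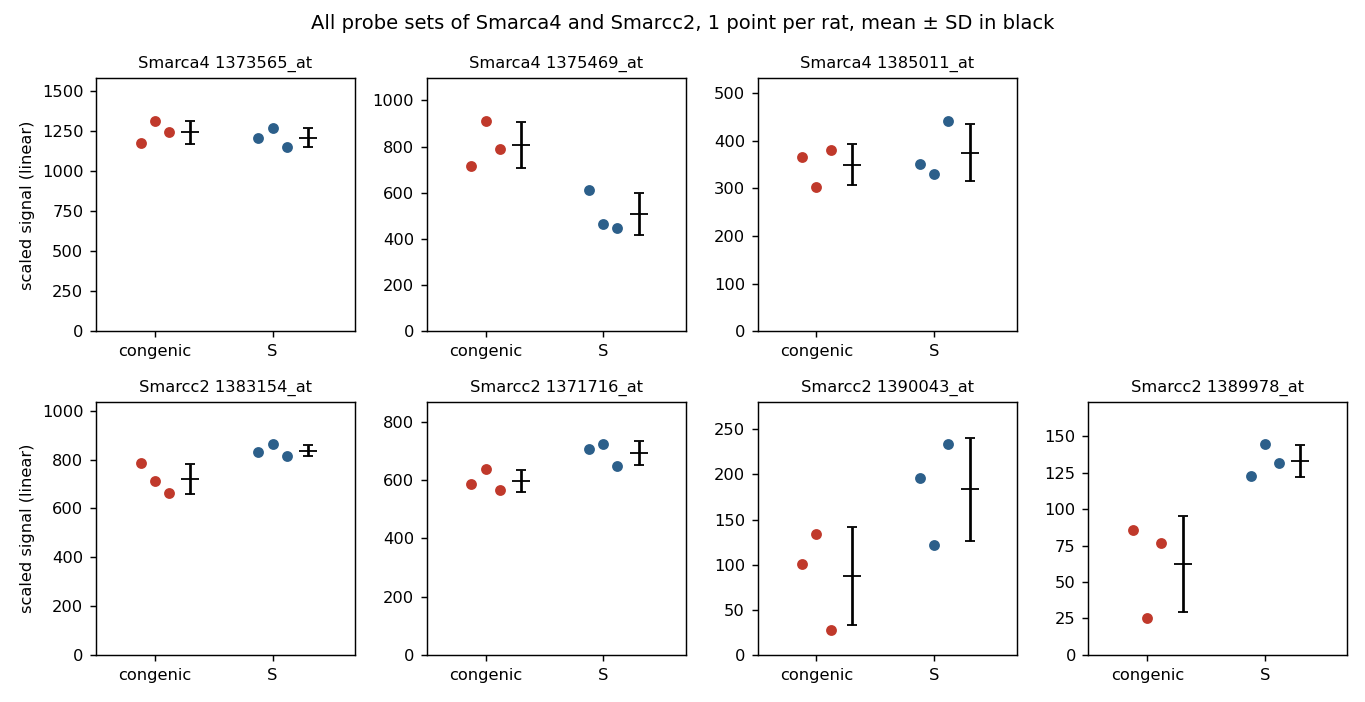
Scaled signal (linear, from 0) of the 3 probe sets of Smarca4 (upper row) and the 4 of Smarcc2 (lower row) in 3 congenic (red) and 3 S (blue) rats, with the mean ± SD in black. Of the Smarca4 probe sets the middle one, 1375469_at, alone has all congenic rats above all S rats, whereas the Smarcc2 probe sets all have a lower congenic mean.

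The disagreement was measured as the ratio of the main to the other probe set within each rat, which cancels what both have in common. For 1373565_at over 1375469_at the log2 ratio was 0.71, 0.53 and 0.65 in congenic rats and 0.98, 1.45 and 1.36 in S rats. The congenic ratios all lie under the S ratios, a difference of -0.63 with a standard error of 0.17. Over the 3087 such pairs of tested probe sets from 2372 genes, the median size of this difference was 0.16 and the 90th percentile 0.42. The Smarca4 pair, chosen for its difference, thus exceeds the 90th percentile and is given without a test. The ratio of the main to 1385011_at overlapped between strains, with a difference of 0.13 and an interval of -0.32 to 0.59. The tested probe set nearest in pattern to the main one belonged to Hadhb, at a root mean square distance of 0.02 in centred log2 signal over the 6 arrays, followed by Psmd6, Ndufa12, Epb41l3 and Hint2 (0.02 to 0.03, against a median of 0.17 over 12418 candidates). All 5 are about as flat between strains as that probe set, with log2 differences of 0.02 to 0.07, which follows from how they were picked. For 1375469_at, a comparison added after its values were seen, the nearest were Msi2 (0.12), Skic2, Atp5me, Atxn7l3b and Ruvbl1 (0.15), against a median of 0.41.

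Smarca2, or BRM, is the alternative ATPase. Its main probe set 1376337_at read 930, 958 and 1298 in congenic rats, against 837, 1073 and 999.7 in S rats, where the strains overlap. The log2 difference was 0.12 with an interval of -0.17 to 0.42 (limma adjusted p = 0.793). Its second probe set, 1385074_at, read 434, 452 and 407 in congenic rats and 278, 393 and 396 in S rats. Congenic rats lie above S rats there, but much of the difference rests on S replicate 1: the log2 difference of 0.30 (interval -0.07 to 0.66, limma adjusted p = 0.572) was 0.13 without it. The third, 1394066_at, lay under the filter and read 49.3, 31.3 and 73.7 in congenic and 16.7, 50.2 and 55.5 in S rats. All 3 Smarca2 differences are positive, and the interval of each includes 0.

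Among the core subunit genes, Smarcb1 (SNF5), which anchors the complex on the nucleosome, read 1076, 1217 and 1026 in congenic rats, against 1092, 1221 and 1094 in S rats. Its log2 difference was -0.04 with an interval of -0.27 to 0.19. Smarce1 (BAF57), which carries an HMG box that binds DNA, read 1744, 1867 and 1817 in congenic rats and 1793, 1766 and 1774 in S rats. The strains overlap, and the main probe set 1372938_at differed by 0.02 on the log2 scale (interval -0.16 to 0.21), with 0.05 and -0.03 at the other 2 probe sets. The within-strain SD of the main Smarce1 probe set was 0.04 log2 units, the smallest among the 10 main probe sets, whose median was 0.11, against 0.15 over all tested genes.

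Smarcd1 and Smarcd2 encode alternative BAF60 subunits, which contact transcription factors. Smarcd1 read 184, 179 and 239 in congenic rats and 226, 252 and 157 in S rats, the widest within-strain spread of the 10 main probe sets (SD 0.30 log2 units). Smarcd2 read 439, 336 and 405 in congenic rats and 363, 443 and 413 in S rats. Both overlap, with log2 differences of -0.06 (interval -0.57 to 0.44) and -0.05 (interval -0.39 to 0.29). The Smarcd1 interval is the widest of the 10 main probe sets.

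Smarcc1 and Smarcc2 encode BAF155 and BAF170, the paired scaffold on which the core assembles. Smarcc1 has 1 probe set, with 314, 293 and 326 in congenic rats and 346, 315 and 289 in S rats, a log2 difference of -0.03 (interval -0.38 to 0.33). Smarcc2 had a lower congenic mean at all 4 of its probe sets. Its main probe set 1383154_at read 785, 714 and 662 in congenic rats, against 832, 863 and 816 in S rats, and its second, 1371716_at, read 587, 637 and 564 in congenic rats, against 707, 722 and 646 in S rats. Each congenic rat lies under each S rat at both, with log2 differences of -0.22 (standard error 0.11) and -0.21 (0.12), neither of which passed over all probe sets tested (limma adjusted p = 0.525 and 0.566). The ratio of these 2 probe sets within a rat differed between strains by -0.01 with an interval of -0.32 to 0.31. The 2 further probe sets lay under the filter. Of these, 1390043_at read 101, 134 and 27.6 in congenic rats and 196, 122 and 233 in S rats, and 1389978_at read 85.9, 25.0 and 76.8 in congenic rats, against 123, 145 and 132 in S rats. Strains overlapped at the first, whereas each congenic rat lies under each S rat at the second. Their log2 differences, -1.30 and -1.28, have intervals that include 0 (-2.96 to 0.37 and -2.60 to 0.05). Each is enlarged by 1 very low congenic rat: without it they were -0.61 and -0.71.

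Arid1a and Arid1b encode the alternative BAF250 subunits that define the BAF form. The main Arid1a probe set 1375524_at read 2009, 2095 and 2033 in congenic rats, against 2554, 2344 and 2251 in S rats. No congenic rat reaches the lowest S rat, and the log2 difference was -0.22 (standard error 0.09), a fold of 0.86 (limma adjusted p = 0.404). The 3 other Arid1a probe sets lay under the filter, all with overlapping strains. Probe set 1389850_at read 102, 95.6 and 97.9 in congenic rats and 189, 155 and 80.6 in S rats (log2 difference -0.43). For 1381519_at the difference was -0.93 with an interval of -2.92 to 1.06. Probe set 1380550_at, at a mean signal of 24.2, differed by 0.00 (interval -1.73 to 1.74), and by -0.26 with only signals under 1 raised to 1.

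The main Arid1b probe set 1381925_x_at read 1338, 1397 and 1181 in congenic rats, against 1527, 1640.4 and 1806 in S rats. All congenic rats lie lower, with means of 1305 ± 112 in congenic and 1658 ± 140.1 in S rats (SD, n = 3 each) and a log2 difference of -0.35 with a standard error of 0.10 (limma adjusted p = 0.277). The suffix of this probe set marks probes that can also match other transcripts. Probe set 1382441_at read 343, 289 and 331 in congenic rats and 361, 398 and 349.9 in S rats, again without overlap, and differed by -0.20 (interval -0.55 to 0.14, limma adjusted p = 0.678). Probe set 1381966_at read 211, 109 and 140.0 in congenic rats and 357, 289 and 138 in S rats. It overlapped through S replicate 3, and its log2 difference of -0.71 (limma adjusted p = 0.479) was -1.12 without that rat and -0.44 without S replicate 1. The 3 remaining Arid1b probe sets, under the filter at mean signals of 59.4, 41.6 and 21.1, had log2 differences of -0.34, 0.39 and 0.27 and overlapping strains. In the gene order of the GRCr8 assembly, Arid1b lies on the chromosome of Adamts16, 160 annotated entries away, and Smarca2 lies on it 4792 entries away. The other 8 genes lie on other chromosomes, and where the donor segment ends is not stated in the labels.

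**Figure D2:**
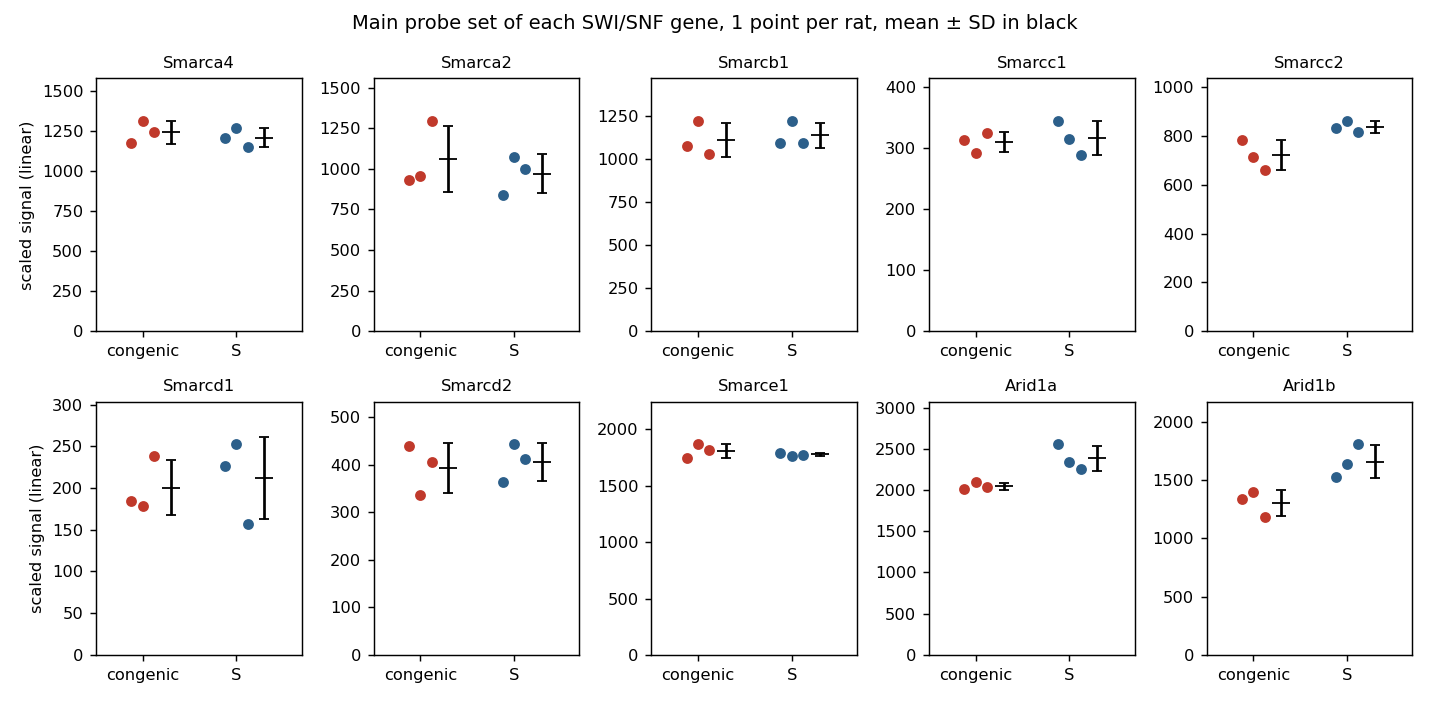
Scaled signal (linear, from 0) of the main probe set of each of the 10 genes in 3 congenic (red) and 3 S (blue) rats, with the mean ± SD in black. Smarcc2, Arid1a and Arid1b have all congenic rats below all S rats, and the other 7 genes overlap.

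Across the 10 main probe sets, 3 differences were positive and 7 negative, where 52.4% of tested genes had a positive one, with a range of -0.35 to 0.12 and a median of -0.05, against a median of 0.01 over the 9334 tested genes. Limma, adjusted by Benjamini-Hochberg over 15521 tested probe sets, called 0 of the 18 tested SWI/SNF probe sets at adjusted p 0.05, beside a background of 0 (0% of all tested). Leaving out 1375469_at of Smarca4, the value that drew attention to the family, 3 of the other 17 had an unadjusted p below 0.05, beside a background of 10.3%: the main Arid1a, the main Arid1b and 1381966_at of Arid1b, all with negative differences. Strains did not overlap at 6 of these 17, with 1 higher and 5 lower, where the background is 16% (7.98% higher and 7.99% lower). Taken by main probe set, 3 of 10 genes did not overlap, all of them lower. The background is 17% of tested genes in either direction, 895 higher and 695 lower of 9334. With the log2 signals of all probe sets of a gene averaged, 2 genes did not overlap, Smarca4 with higher and Smarcc2 with lower congenic values. Arid1a and Arid1b overlapped, but these averages weight probe sets under the filter as much as the main ones. With the probe set of second highest signal, where a gene has one, 4 genes did not overlap: Smarca4 and Smarca2 higher, Smarcc2 and Arid1b lower. Both counts take in 1375469_at of Smarca4, the value that drew attention to the family, so Smarca4 supports nothing in them. Neither count has a share over all genes beside it, so neither can be read as above or below background. With arrays centred on their median signal, 1 gene did not overlap, beside 17.5% of all tested probe sets. There 7 of the 10 differences were positive, so the split of signs among the small differences depends on the scaling. Probe sets of 1 gene share their transcript and the 6 rats, so these counts are not of independent items, and the exact permutation test of 3 against 3 rats cannot go below p = 0.1.

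**Figure D3:**
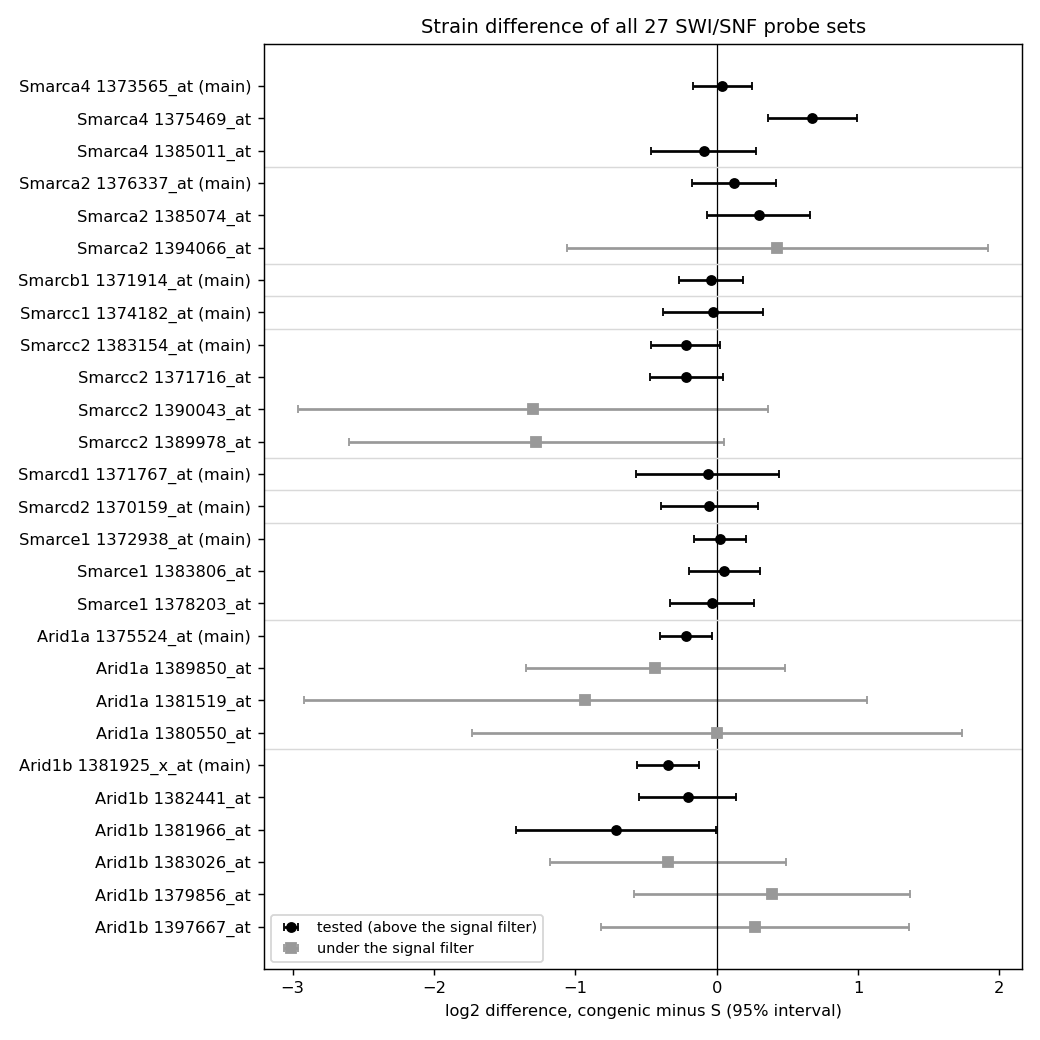
Log2 difference, congenic minus S, with its 95% interval, for all 27 probe sets grouped by gene, with tested probe sets in black and those under the signal filter in grey. The intervals widen under the filter, and the 3 Smarca4 probe sets span -0.09 to 0.68.

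Agreement between probe sets was then compared over the genes with more than 1 tested probe set. These were Smarca4, Smarca2, Smarcc2, Smarce1 and Arid1b, with 8 pairs of main and other probe set. Leaving out Smarca4, the strain difference had the same sign in 5 of 6 pairs, where 56.3% of all 3087 pairs do. The exception was 1378203_at of Smarce1, at which both differences are near 0. Limma on the within-rat ratios called 0 of these 6 pairs (smallest adjusted p = 0.81) and 0 at an unadjusted p below 0.05, where the background is 8.84% at that unadjusted p and 0% after adjustment. The widest of the 6 was that of the main Arid1b probe set to 1381966_at, at 0.37 with an interval of -0.53 to 1.27. The tested probe sets of Smarca4 and Smarce1 differed in sign, and, once probe sets under the filter are counted, so did those of Arid1a and Arid1b.

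**Figure D4:**
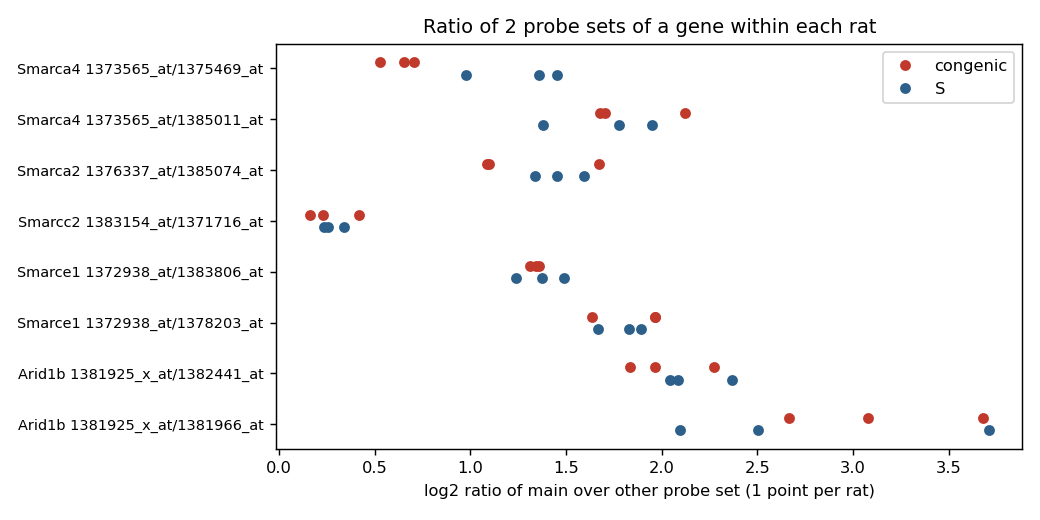
Log2 ratio of the main over another tested probe set of the same gene, 1 point per rat, for 3 congenic (red) and 3 S (blue) rats. Congenic rats stand apart from S rats in the pair 1373565_at over 1375469_at of Smarca4, and the other 7 pairs overlap.

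Alternative subunits were also set against each other within each rat, by main probe set, to see whether their balance shifted. The size of such a ratio depends on the probes and is not read, only its change. The log2 ratio of Smarca4 to Smarca2 differed by -0.08 between congenic and S rats, that of Smarcc2 to Smarcc1 by -0.19, that of Smarcd2 to Smarcd1 by 0.01 and that of Arid1b to Arid1a by -0.13. Strains overlapped in all 4 ratios. The median deviation of the 10 genes from their means was -0.06, -0.07 and 0.02 in the congenic rats and 0.03, 0.11 and -0.01 in the S rats, so that congenic replicate 3 lies among the S rats.

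The remaining subunits of BAF, PBAF and the smaller ncBAF complex were divided evenly by sign. Of 21 further subunit genes, 19 were on the array and 12 were tested, of which 6 had positive and 6 negative differences, with a median of -0.01. None passed (limma, smallest adjusted p = 0.634), and 0 reached an unadjusted p below 0.05, against 10.4% of tested genes. Arid2, which takes the place of Arid1a and Arid1b in PBAF, averaged 1012 ± 175 in congenic and 1137 ± 83.5 in S kidneys (SD, n = 3 each). Its log2 difference was -0.18, with -0.24 and -0.47 at 2 further probe sets. Pbrm1, the bromodomain subunit of PBAF, differed by 0.10 at its main probe set and by -0.09 to 0.03 at 5 others. The ncBAF genes Brd9 and Bicral had 0.06 and -0.18. The actin-related Actl6a had 0.18, the reader of histone marks Dpf2 had -0.07, and Ss18 and Smarcd3 had -0.14 and -0.15. Brd7 of PBAF had 0.02, and Bcl7a, Bcl7b and Bcl7c had -0.05, 0.09 and 0.20. Of the 12, Bcl7b alone had strains that did not overlap, with means of 1440.1 ± 84.9 in congenic and 1354 ± 5.63 in S kidneys.

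Other remodeller families were described in the same way. In the ISWI list, 10 genes were tested with a median difference of 0.03, and 3 reached an unadjusted p below 0.05 (limma, none after adjustment), beside 10.4% of all tested genes. These were Baz2a, a subunit of the nucleolar remodelling complex, at -1.08 (limma adjusted p = 0.17), Baz1b at 0.22 and Rsf1 at -0.40. Baz2a averaged 285 ± 138 in congenic and 560.1 ± 22.9 in S kidneys (SD, n = 3 each). It has no other probe set. The other tested probe set had -0.15 for Baz1b and -0.02 for Rsf1, so neither gene's difference was repeated there. For NuRD and CHD genes the median over 18 was 0.00. Mbd2 and Mbd3, alternative NuRD subunits, were at 0.19 and 0.21 and the deacetylase gene Hdac2 at -0.20. The INO80, SRCAP and TIP60 genes had a median of 0.11 over 25, with 3 at an unadjusted p below 0.05, a share near the 10.4% of all tested genes. The 3 of smallest p were the AAA+ ATPase gene Ruvbl1 at 0.47, Znhit1 at 0.29 and Ino80c at 0.28. None of these passed the adjusted threshold (smallest adjusted p = 0.326).

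**Figure D5:**
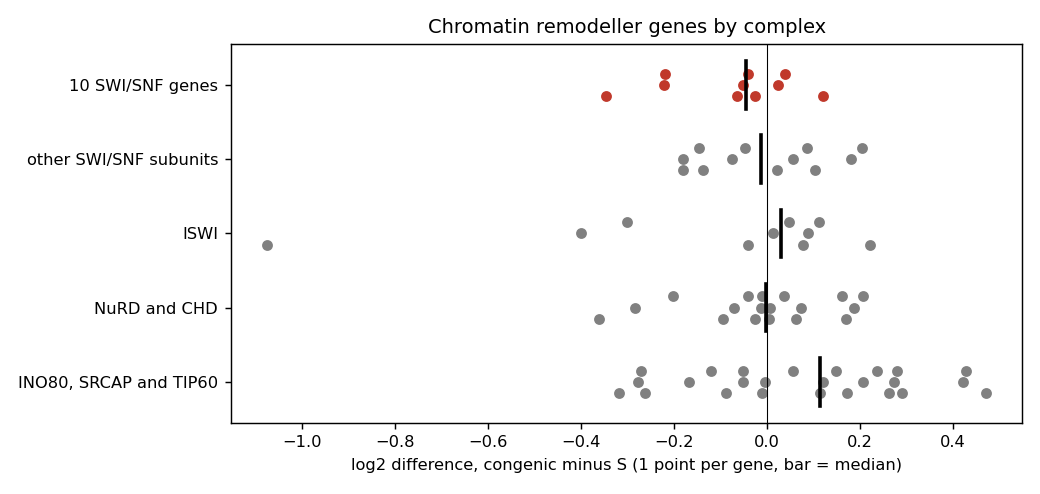
Log2 difference, congenic minus S, of each gene's main tested probe set, 1 point per gene, for the 10 SWI/SNF genes (red) and 4 other lists of remodeller genes (grey), with the list median as a black bar. The 10 SWI/SNF genes lie between -0.35 and 0.12, and the lowest point of all is Baz2a at -1.08.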

How the data were processed

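Each deposited value is the linear intensity of a probe set. GCOS 1.4 is named in the submitters' processing notes, whereas its settings and detection calls are not stated there. The mean of each array after trimming 2% at either end was 500.2, so arrays had been scaled before deposit, and no further normalisation was applied. Of 31099 probe sets, 57 controls were left out. Values under the 10th percentile (12.3) were set to it before taking log2, and the 15521 probe sets with mean log2 signal above the median were tested. Differences of probe sets under that filter come from the same fit over all 31042 and carry no p-value. Names came from the array's platform annotation (20826 with 1 symbol, 436 with several, 9780 with none), with symbols updated through the GRCr8 gene table, which added no SWI/SNF probe set.

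Strains were compared by limma 3.58.1 under R 4.3.3 (lmFit, eBayes with intensity trend, Benjamini-Hochberg adjustment, threshold 0.05). The within-rat ratio of probe sets was fitted likewise over all pairs. With 3 arrays a strain, precision is limited by their number, and standard errors of log2 differences had a median of 0.14. Replicates were numbered in accession order, as the labels pair no samples. Members, lists and tests were chosen with earlier results of these data known. Named genes are all members, the other SWI/SNF subunits tested, up to 3 genes of smallest p from each other list and the 5 probe sets nearest to Smarca4. Alternatives covered the floor, a pseudocount of 16, the filter, normalisation, variance trend, array weights, a block for the title number, the choice of probe set and each array left out. The fit was tested on simulated data. Figures were drawn with matplotlib 3.10.9.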

Additional observations from a re-analysis of the deposited data

How the results depend on the processing

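No probe set of the 10 genes passed under the 9 alternatives of processing, and over all tested probe sets 9 passed with arrays centred on the median and 0 under the other 8. Leaving out 1 rat gave 0 to 41 calls over all and 0 to 1 among the 18 SWI/SNF probe sets tested (over all, 41 without S replicate 1, and 6 and 3 on omitting congenic replicates 1 and 3). The 1 was 1375469_at of Smarca4, the probe set already chosen for its difference, on omitting S replicate 1, the S rat nearest to the congenic rats, and it supports nothing. That probe set's difference ran from 0.58 to 0.82 over the 15 refits. The main Smarca4 probe set ran from 0.03 to 0.11 over the processing alternatives and from -0.0013 to 0.08 with 1 rat left out. The main Smarcc2, Arid1a and Arid1b probe sets kept a negative difference in all 15. With 1 rat left out that sign was fixed in advance, because all congenic rats lie under all S rats there. Centring on the median shifted the median of all tested genes to 0.08: there 7 of 10 main probe sets had positive differences (3 as reported, 5 after quantile normalisation or cyclic loess) and 1 gene in place of 3 had strains that did not overlap. By probe set choice that number was 2 with all probe sets of a gene averaged and 4 with the second highest, and the median of the 10 genes stayed at -0.05. The gene counts for both probe set choices include Smarca4, whose probe set 1375469_at was chosen for its difference. The median of the 10 genes was 0.0256 with centring, -0.0009 after quantile normalisation and -0.0016 after cyclic loess. With 1 rat left out it ran from -0.0773 to 0.0139. With centring the medians were 0.0586 for the other SWI/SNF subunits, 0.1022 for ISWI, 0.0689 for NuRD and CHD and 0.1855 for INO80, SRCAP and TIP60, and with the title number as a block the first was 0.0242. With 1 rat left out they ran, in the same order, from -0.0356 to 0.0588, from -0.0531 to 0.0875, from -0.0246 to 0.0220 and from 0.0345 to 0.1304. The cause of these shifts was not tested. No paired analysis was possible because the labels give the strains no shared replicate numbers. The 9 probe sets under the filter have wider intervals, and 2 of them fall under the floor on some array.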
